A study of Mus musculus with 4 samples.

Results

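The genes that fill the granules of developing neutrophils were examined in the liver of mice born small (microsomic, M) and of normal weight (control, C), males and females. The set holds 10 genes, taken by name from the array annotation, out of 36161 gene names. They were *Mpo*, *Elane*, *Prtn3*, *Ctsg*, *Ltf*, *Camp*, *Ngp*, *Lcn2*, *S100a8* and *S100a9*, and they are measured by 12 of the 55681 non-control probes, 11 of them without an outlier flag on any array. The data comprise 4 one-colour Agilent arrays of 60-base probes, 1 for each group: females and males with microsomia (MF and MM) and control females and males (CF and CM). The labels give whole liver of C57BL/6J mice on embryonic day 20 for all groups, whereas the methods of the study describe newborn C57BL/6 N mice. Microsomic mice were small at birth with no known genetic cause or treatment, and controls were littermates of normal weight. The labels do not say if a single liver or a pool was hybridized, and the methods mention replicate experiments for which no further arrays were analysed here. Since each group has 1 array, the spread between animals is unknown, and a pair of groups has no error and no p-value. Values are processed signals relative to the 75th percentile of their array, in log2, so that 1 unit is a doubling. A difference is described as higher or lower only past 1.5-fold.

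Before birth the liver is the main blood-forming organ, and granulocytes are made in it beside red cells. Maturing neutrophils fill their granules in a fixed order. Primary (azurophil) granules, with myeloperoxidase and the serine proteases, form at the promyelocyte stage, whereas secondary (specific) granules, with lactoferrin, cathelicidin and lipocalin, form at the myelocyte stage. The pair of S100 proteins is stored in the cytosol. Primary granule genes are classically driven by PU.1, MYB and RUNX1 together with C/EBP alpha, and secondary granule genes by C/EBP epsilon. Liver RNA holds all these cells at once, and more cells of a type cannot be told apart from more RNA per cell.

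The promoters of the genes show which of these factors' short motifs lie next to the start sites. Each was read from 250 bases before the start site to 50 after it (RefSeq, GRCm38.p6), on both strands, and all 10 genes had an entry. GAGGAA, the core letters of a PU.1 site, was present in all 4 primary granule promoters (*Mpo*, *Elane*, *Prtn3*, *Ctsg*) and in *Ltf*, *Lcn2* and *S100a8*, which makes 7 of 10, against 28.3% of 32851 promoters. TTNNGNAA, a loose form of the C/EBP site, was found in none of the primary granule promoters but in *Ltf*, *Ngp*, *Lcn2* and both S100 genes, 5 of 10 against 40.7%. TGTGGT, read by RUNX factors, was in *Ctsg*, *Ltf* and *S100a9* (16.8% of promoters), and CAACTG, read by MYB, in *Ctsg* (13.7%). TATAAA was in *Ctsg*, *S100a8* and *S100a9* (13.6%), and the *Camp* window held none of these letters. A match describes the sequence and says nothing about whether a factor was bound. Each factor was searched with a single string, so a promoter without a match can still hold another form of its site. The 150 bases before the start site are shown for 4 genes, with the matches in capitals. *Elane* and *Prtn3* are neighbours that both hold GAGGAA, at bases -85 and -95 from the start site, and *Ngp* holds 3 C/EBP matches. In *S100a8* the GAGGAA match, read on the other strand as TTCCTC, ends just before TATAAA, and a C/EBP match lies upstream.
Elane, chr10:79886162-79886311, plus strand: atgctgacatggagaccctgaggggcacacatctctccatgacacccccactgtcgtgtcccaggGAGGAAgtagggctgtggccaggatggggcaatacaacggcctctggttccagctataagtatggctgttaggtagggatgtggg
Prtn3, chr10:79879517-79879666, plus strand: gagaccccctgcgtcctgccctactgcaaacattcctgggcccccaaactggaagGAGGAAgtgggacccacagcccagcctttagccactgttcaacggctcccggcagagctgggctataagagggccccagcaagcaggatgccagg
Ngp, chr9:110419658-110419807, plus strand: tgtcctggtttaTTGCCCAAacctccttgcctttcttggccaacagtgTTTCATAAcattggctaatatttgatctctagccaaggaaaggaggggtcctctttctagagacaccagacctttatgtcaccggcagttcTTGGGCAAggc
S100a8, chr3:90668921-90669070, plus strand: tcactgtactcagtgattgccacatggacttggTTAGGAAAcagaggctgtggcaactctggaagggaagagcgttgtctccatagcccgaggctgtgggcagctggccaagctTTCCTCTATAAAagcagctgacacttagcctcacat

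All 12 probes were well above background on all 4 arrays and none was saturated. The error that the scanner software assigns to each of their signals was 10%. The arrays themselves had 56.1% to 65.3% of spots well above background and 75th percentiles of 628 to 925. Probes printed at 10 spots had a median SD of 0.25 to 0.34 (log2) within an array, which is a technical spread and not one between animals. The non-uniformity flag was set at 916 spots on MF and at 130 to 182 on the others. All arrays lie on the same slide, with M in one column and C in another and the sexes in separate rows, so that position and group cannot be told apart. All 14 hepatocyte markers, among them *Alb* and *Afp*, were well above background on all 4 arrays.

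**Figure D1:**
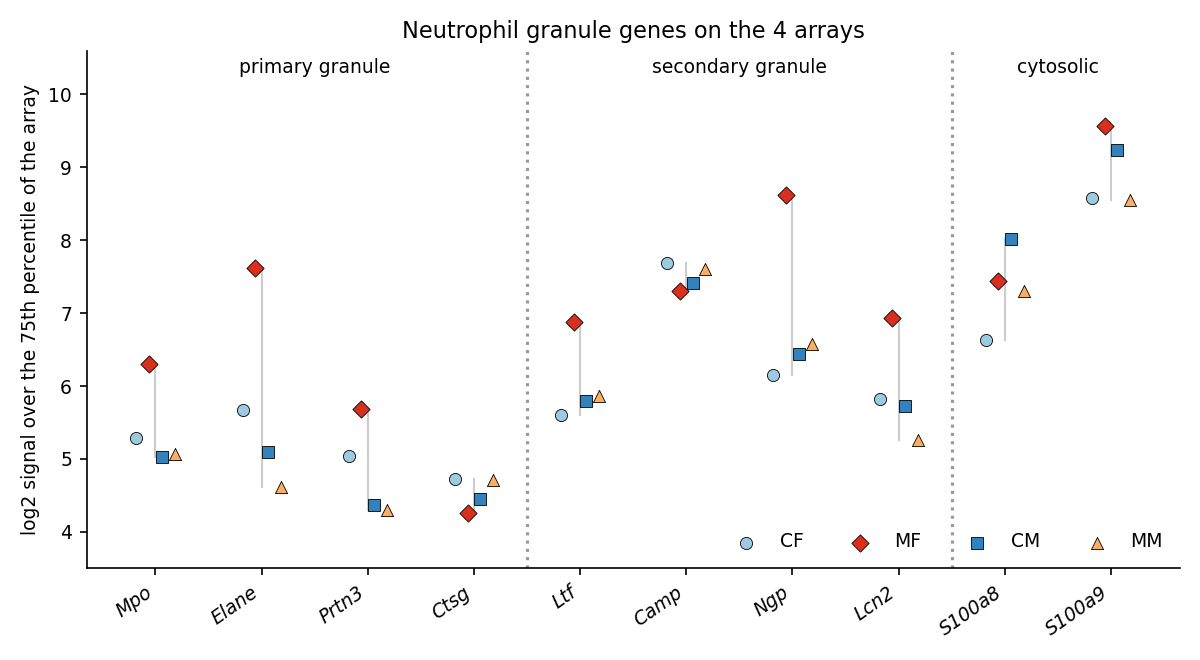
Log2 signal over the 75th percentile of the array (y axis) of the 10 granule genes (x axis), 1 point for each array: MF, CF, MM and CM; vertical lines join the lowest and the highest array. The MF point is the highest for 7 genes, and in *Ctsg* and *Camp* it is the lowest. Heights of different genes are not comparable because each probe has its own brightness.

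Among the primary granule genes, *Elane*, *Mpo* and *Prtn3* were highest on MF, and *Ctsg* was not. *Elane* encodes neutrophil elastase, a serine protease that digests matrix and bacterial proteins, and its probe (A_66_P137219, chr10:79350902-79350961 on mm9, plus strand) read 7.61 on MF, 5.67 on CF, 4.61 on MM and 5.09 on CM. The MF value stood apart from the others, 3.85-fold above CF (log2 difference 1.95) and 8.03-fold above MM. In males the order was the other way round, with MM minus CM at -0.49, within 1.5-fold. *Mpo*, the peroxidase that makes hypochlorous acid, read 6.30 on MF, 5.29 on CF, 5.07 on MM and 5.02 on CM (A_55_P1995537, chr11:87617840-87617899). MF was 2.02-fold above CF (1.02), while the other 3 arrays lay within 0.27 of each other, less than the highest within-array SD of spots. *Prtn3*, proteinase 3, a close relative of elastase, read 5.68 on MF, 5.04 on CF, 4.29 on MM and 4.37 on CM on a probe that joins exons (A_51_P209818, chr10:79343869-79344685). Both females were above both males, and MF was 1.57-fold above CF (0.65), just past the threshold. The probes of *Prtn3* and *Elane* lie 6.22 kb apart.

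*Ctsg*, cathepsin G, is the chymotrypsin-like protease of the same granules. It read 4.26 on MF, 4.72 on CF, 4.72 on MM and 4.45 on CM (A_51_P416546, chr14:56718795-56718854, minus strand), so that MF was the lowest array. The differences were -0.47 for MF minus CF and 0.27 for MM minus CM, both within 1.5-fold.

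*Mpo* has a second probe (A_55_P2066505, chr11:87615121-87615180), which carries the non-uniformity flag on MF and was left out of the gene's value. It read 5.54 on MF, 3.57 on CF, 3.27 on MM and 3.39 on CM, again with MF alone above the rest. The difference MF minus CF was 1.97 on this probe, larger than on the unflagged one, and MM minus CM was -0.12.

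Among the secondary granule genes, *Ngp*, *Ltf* and *Lcn2* were highest on MF and *Camp* was lowest there. *Ngp*, neutrophilic granule protein, a cystatin-related protein of myelocytes, read 8.62 on MF, 6.16 on CF, 6.58 on MM and 6.44 on CM on an exon-joining probe (A_52_P429450, chr9:110324266-110324814). This was the largest difference of the set, 5.53-fold (2.47), and the 3 other arrays spanned 0.42. MM minus CM was 0.14. *Ltf*, lactoferrin, which binds iron and withholds it from bacteria, read 6.88 on MF, 5.61 on CF, 5.86 on MM and 5.79 on CM (A_52_P15388, chr9:110942873-110942932). MF was 2.41-fold above CF (1.27), and the other 3 arrays differed by at most 0.25, less than the highest within-array SD of spots.

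*Lcn2*, lipocalin 2, which captures bacterial siderophores and is also made by hepatocytes in inflammation, read 6.94 on MF, 5.82 on CF, 5.26 on MM and 5.73 on CM (A_55_P2070869, chr2:32240199-32240258, minus strand). MF was 2.17-fold above CF (1.11) and MM was the lowest array, at -0.47 from CM. *Camp*, the cathelicidin precursor, read 7.31 on MF, 7.69 on CF, 7.60 on MM and 7.42 on CM on its brighter probe (A_55_P2039699, chr9:109749911-109749970, minus strand). All 4 values lay within 1.5-fold, with -0.38 for MF minus CF and 0.18 for MM minus CM. Its second probe (A_55_P2158102, chr9:109749901-109749950) shares 40 bases with the first in the annotation and read 6.46 on MF, 6.38 on CF, 6.38 on MM and 6.68 on CM, differences of 0.08 and -0.29. The probes of *Camp* thus disagreed in sign in both sexes, and neither passed 1.5-fold.

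*S100a8* and *S100a9* form calprotectin, the metal-binding heterodimer that makes up much of the neutrophil cytosol, and their probes lie 22.7 kb apart. *S100a8* read 7.44 on MF, 6.63 on CF, 7.31 on MM and 8.02 on CM (A_51_P256827, chr3:90473778-90473837), with CM highest and CF lowest. *S100a9* read 9.56 on MF, 8.58 on CF, 8.56 on MM and 9.24 on CM (A_55_P1998471, chr3:90496573-90496632, minus strand), with MF and CM high and the other arrays low. Both genes were higher in MF than in CF, by 1.75-fold (0.81) and 1.98-fold (0.99), and lower in MM than in CM, by 1.64-fold (-0.72) and 1.60-fold (-0.68). The controls differed too, with CM 2.62-fold above CF for *S100a8* and 1.58-fold for *S100a9*. Of 23966 genes compared in both sexes, 5.98% were past 1.5-fold higher in MF and lower in MM, as these genes were. With 1 array per group the difference between the sexes was not tested.

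Over the set, 8 of 10 genes exceeded CF by over 1.5-fold on MF, and 0 were lower. Among 25536 genes compared, 19.9% were past 1.5-fold higher in MF and 21.2% lower. Over 2-fold higher were 5 of 10, namely *Mpo*, *Elane*, *Ltf*, *Ngp* and *Lcn2*, against 10.8% of all genes. The median difference was 1.001, while that of all genes was -0.06. In males, 0 of 10 genes were past 1.5-fold higher and 2, the S100 genes, were lower in MM than in CM, where 17.7% of 26313 genes were higher and 24.6% lower. The male median was -0.01 for the set and -0.06 for all genes.

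The counts depended on the scaling. With quantile normalization between arrays only *Elane* and *Ngp* stayed past 1.5-fold higher in MF than in CF, while *Ctsg* and *Camp* were past 1.5-fold lower. Of 25520 genes compared in this setting, 4495 were higher and 5440 lower, so the counts of the set were near these shares. The set median was then 0.37, and that of all genes -0.08. With normexp background correction before quantile normalization, *Elane*, *Ltf* and *Ngp* were higher and *Camp* lower. There, 3738 of 25551 genes were higher and 4123 lower. In males the count ran from 0 genes with each array centred on its median to 5 higher (*Mpo*, *Ctsg*, *Ltf*, *Camp* and *Ngp*) without scaling, or 4 lower (*Elane*, *Prtn3*, *Ltf*, *S100a8*) and 1 higher (*Ngp*) with normexp and quantile. Over all genes, 7218 of 26313 were higher in MM and 4740 lower with median centring. Without scaling these counts were 11791 and 3277, and with normexp and quantile 6435 and 5958 of 26284. *Elane* (1.16 to 2.35) and *Ngp* (1.31 to 2.87) were past 1.5-fold higher in MF under all 9 other settings, and the other 6 genes were not. The *Elane* probe belongs to a sequence class with many large MF minus CF differences, given below.

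**Figure D2:**
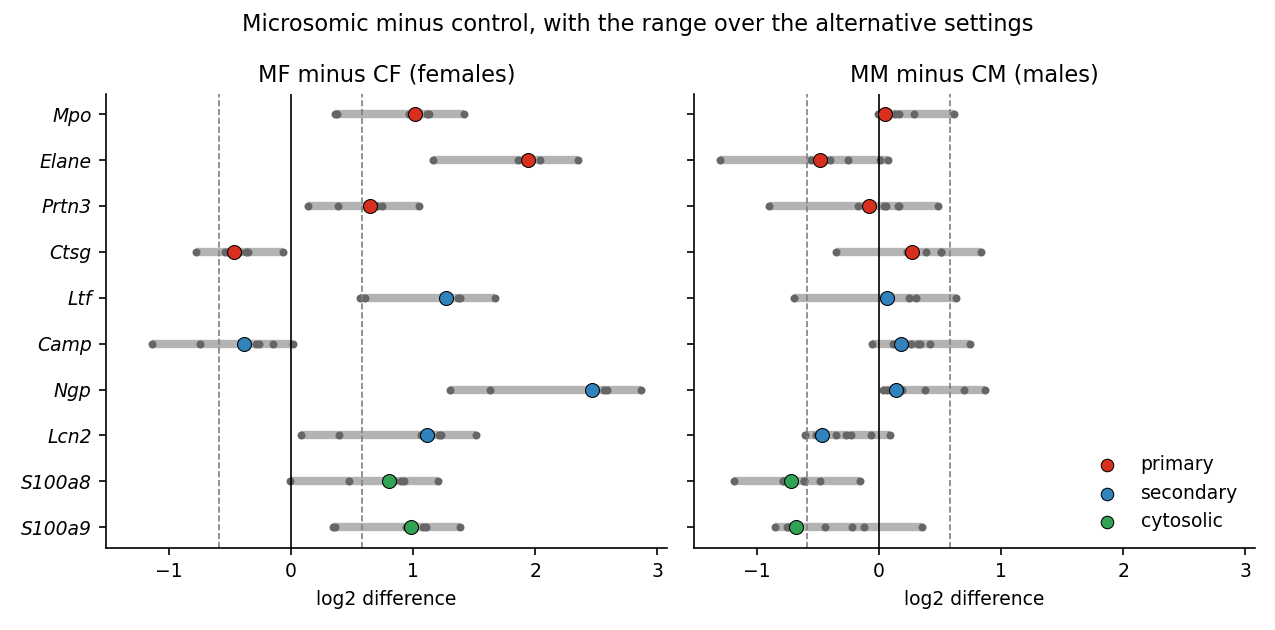
Log2 difference (x axis) of MF minus CF (left) and MM minus CM (right) for each granule gene. Large points give the 75th percentile scaling, small points the 9 other settings and grey bars their range; dashed lines mark 1.5-fold. On the left the whole bars of *Elane* and *Ngp* lie to the right of the dashed line, and on the right most large points lie between the lines.

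The MF array set these results apart from the other 3. It was the highest array for 7 of 10 genes, and for 6 genes (*Mpo*, *Elane*, *Prtn3*, *Ltf*, *Ngp*, *Lcn2*) it lay over 1.5-fold above each of the others, against 8.14% of 23966 genes. The sex comparisons share arrays with those above, so their values are given side by side and not as further evidence. In controls, CM was past 1.5-fold above CF for the 2 S100 genes (27.1% of all genes) and below it for 1 gene, *Prtn3* (19.7%). In microsomic mice, 7 of 10 genes were past 1.5-fold lower in MM than in MF and 0 higher, against 20.6% and 28.9% of all genes. The exceptions were *Ctsg* (MM minus MF 0.46), *Camp* (0.30) and *S100a8* (-0.13).

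Primary and secondary granule genes were alike in how many were high on MF. In females, 3 of 4 primary genes and 3 of 4 secondary genes were higher in MF, and each class held 1 gene with MF lowest. The median MF minus CF difference was 0.83 for the primary genes, 1.19 for the secondary genes and 0.90 for the cytosolic pair. The single genes ran from -0.47 to 1.95 in the primary and from -0.38 to 2.47 in the secondary class. The primary minus secondary gap of the medians was -0.36, and it came to 0.026 with normexp and quantile normalization. In males the medians were -0.01, 0.10 and -0.70, and the gap between primary and secondary genes was -0.12, or -0.75 with normexp and quantile normalization.

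The only fit with a residual used the 4 arrays together, with sex and M against C as terms (limma, 1 residual degree of freedom), and asked for a change shared by both sexes. Of 19298 genes well above background on all 4 arrays, 0 had a Benjamini-Hochberg adjusted p under 0.05 (0.0%), and 851 (4.41%) had an unadjusted p under 0.05. None of the 10 granule genes was among either. *Ngp* came nearest, with M minus C at 1.30 (SE 0.59), an unadjusted limma p of 0.062 and an adjusted p of 0.995, and over all settings the smallest adjusted p of a granule gene was 0.237. In simulated data of this size, a log2 change of 2 was recovered in 0 of 200 genes and one of 4 in 199, the latter with 26 false calls. The fit thus missed simulated shared changes of 2, and smaller ones were not simulated.

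Other genes of these granules, or of the cells that form them, were taken from lists, and not all encode granule proteins. The medians of the lists are over the members well above background on all 4 arrays. Their counts stand beside 19.9% of all genes higher and 21.2% lower in MF than in CF, and 17.7% and 24.6% in MM against CM. Of 16 other primary granule and promyelocyte genes, 3 were past 1.5-fold higher and 0 lower in MF than in CF (median 0.07), and 1 was higher and 4 lower in MM than in CM (median -0.03). The 3 with the largest mean difference were *Dmkn* (MF minus CF -0.52, MM minus CM -2.12), *Gstm1*, a glutathione transferase that hepatocytes also make (1.31 and 0.49), and *Srgn*, the proteoglycan that packs granule proteases (-0.50 and -0.80). *Gstm1* read 6.23 on MF, 4.92 on CF, 5.02 on MM and 4.53 on CM, so that MF alone was high, as for *Mpo*. The others past 1.5-fold higher in MF were *Mgst1*, another glutathione transferase (1.25 and -0.65), and *Calr*, a chaperone of the endoplasmic reticulum (0.72 and 0.45). Named after their values were seen, *Ms4a3* (-0.03 and -0.44), *Prss57* (0.42 and -0.52) and *Bpi* (0.56 and -0.27) were within 1.5-fold in both sexes. So were *Cst7* (0.06 and 0.25) and *Plac8* (0.05 and -0.03).

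Of 29 other secondary and tertiary granule genes, 13 were past 1.5-fold higher in MF than in CF (44.8%, against 19.9% of all genes) and 2 lower, with a median of 0.39. In males 5 were higher and 3 lower, with a median of 0.09. *Padi4*, the enzyme that citrullinates histones in neutrophils, was higher in M of both sexes (1.20 and 1.43), as was *Adam8*, a metalloprotease of granule membranes (0.73 and 1.53). *Cyba*, the small subunit of the flavocytochrome of the NADPH oxidase, was 1.25 and 0.41. Named after their values were seen, *Retnlg* (1.69 and -0.20), *Stfa2* (1.41 and -0.47), *Pglyrp1* (1.22 and -0.17) and the gelatinase *Mmp9* (0.95 and -0.03) were past 1.5-fold higher in MF than in CF. In males they were within 1.5-fold, and most of the 10 genes had the same pattern of differences. *Chil3*, a chitinase-like protein of myeloid cells, went the other way, at -0.91 in females and 1.89 in males.

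Surface and chemotaxis genes of mature neutrophils did not follow. Of 21 compared in females, 5 were higher and 5 lower in MF (median -0.11), and of 20 in males 2 were higher and 4 lower in MM (median -0.14). *Cxcl1*, a neutrophil-attracting chemokine, was higher in M of both sexes (1.80 and 0.68), *Ccl6* was lower in both (-1.31 and -0.80), and *Trem3*, a myeloid receptor, was higher in MF alone (2.04 and 0.04). *Csf3r*, the receptor of the granulocyte growth factor, was named after its values were seen and read 5.16 on MF, 5.28 on CF, 5.43 on MM and 5.52 on CM, all within 1.5-fold.

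The list of granulocyte transcription factors held 17 genes, not all particular to that lineage, each well above background on at least 1 array. Of these, 5 (29.4%) were past 1.5-fold higher in MF and 1 lower (median 0.33). In MM 3 (17.6%, near the 17.7% of all genes) were higher and 1 lower (median 0.13). *Cebpa*, the C/EBP factor of early granulocytes, read 4.75 on MF, 2.73 on CF, 3.59 on MM and 3.01 on CM, differences of 2.02 and 0.58, though hepatocytes express it strongly too. *Gfi1*, a repressor needed for neutrophils, read 0.09 on MF, -0.75 on CF, 0.41 on MM and -1.92 on CM, with both M arrays above both C arrays by 0.84 and 2.32 within sex. *Klf5* was likewise higher in both sexes (1.59 and 1.07), and *Cebpg* (1.05 and 0.57) and *Irf8* (0.77 and 0.55) in females. *Runx1* was lower in MM (-0.36 and -1.17), *Fli1* lower in MF (-0.73 and -0.02) and *Cbfb*, the partner of RUNX1, higher in MM (-0.27 and 0.64). *Cebpe*, the factor of secondary granules, read 2.82 on MF, 2.59 on CF, 2.50 on MM and 2.80 on CM (0.23 and -0.30), and *Spi1*, which encodes PU.1, differed by 0.29 and -0.29. *Myb* (-0.18 and 0.15), *Cebpb* (0.43 and 0.11), *Cebpd* (-0.09 and -0.08), *Gata2* (0.41 and 0.09), *Ets1* (0.21 and -0.24) and *Elf1* (0.37 and 0.34) were within 1.5-fold in both sexes. *Per3*, well above background on 3 of the 4 arrays, differed by -0.36 in males.

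**Figure D3:**
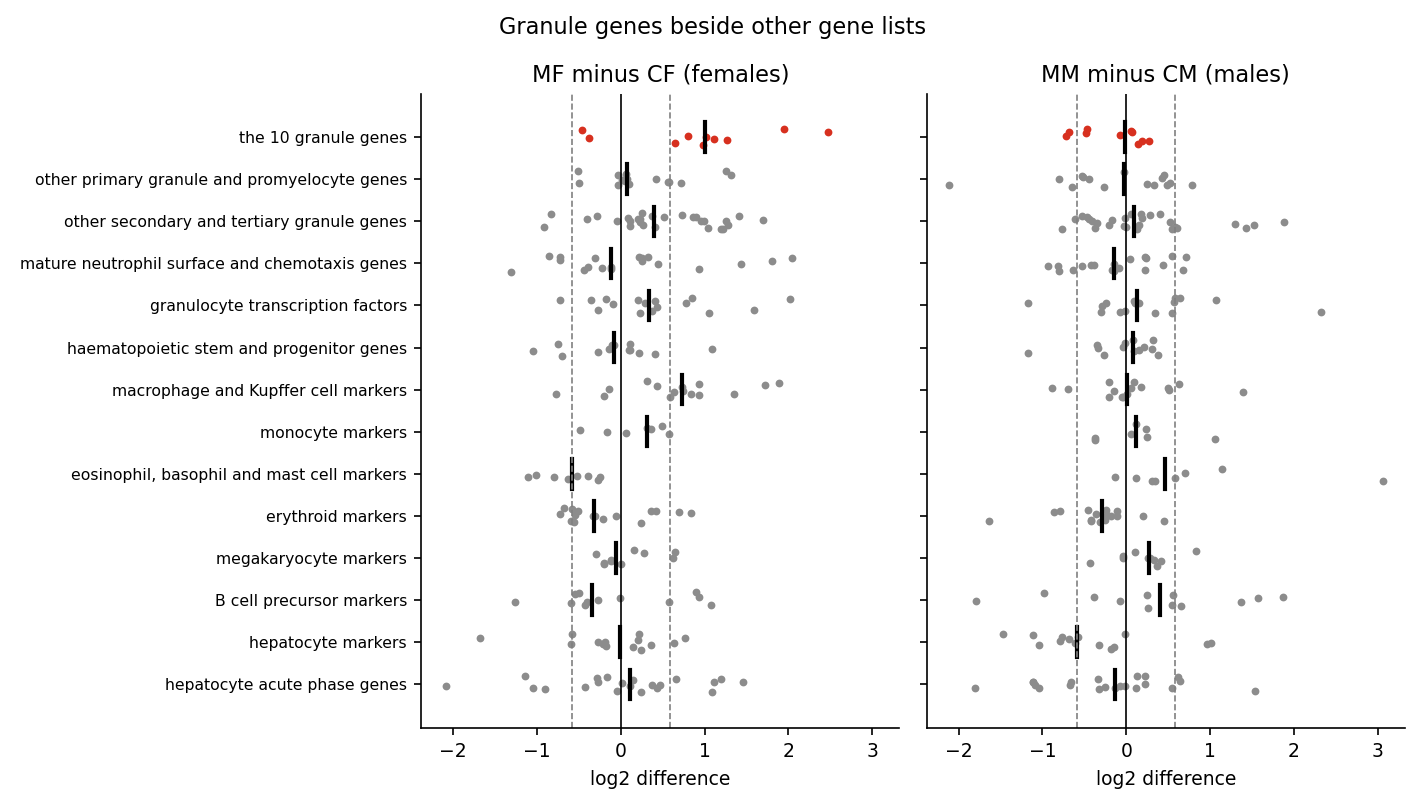
Log2 difference (x axis) of MF minus CF (left) and MM minus CM (right) for the 10 granule genes (red) and for genes of 13 other lists that were well above background on all 4 arrays (grey), 1 point a gene; black bars are medians of the points and dashed lines mark 1.5-fold. In females the granule genes have the rightmost median, 1.001, followed by the macrophage list, and in males their median lies at -0.01.

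Among the lists of other blood cells, that of macrophages and Kupffer cells moved beside the granule genes on MF. Of 16 macrophage and Kupffer cell markers, 10 (62.5%, against 19.9% of all genes) were past 1.5-fold higher and 1 lower in MF than in CF (median 0.73), and 3 higher and 2 lower in MM than in CM (median 0.01). Their summed level, in multiples of the 75th percentile, was 412 on MF, 208 on CF, 227 on MM and 222 on CM, so that MF alone was high, as for the granule genes. The sum is linear and weighs bright genes most, such as *Csf1r* at 6.96 on MF, 5.07 on CF, 4.89 on MM and 4.79 on CM (log2). Not every marker was highest on MF: *Vsig4* and *Mrc1* were highest on MM, *C1qb* on CM and *Ctss* on CF. *Cd163*, well above background on 2 arrays, was also highest on MM. All list counts were made with the 75th percentile scaling only. The 3 largest mean differences were those of *Csf1r*, the receptor of the macrophage growth factor (1.89 and 0.09), *Lyz2*, the lysozyme that neutrophils also make (1.72 and 0.06), and *Clec4f*, a Kupffer cell lectin (0.93 and 0.63). The part of these cells in the result was not tested.

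Markers of eosinophils, basophils and mast cells went the opposite way, with 0 of 11 higher and 6 lower in MF, and 6 of 12 higher and 0 lower in MM (medians -0.58 and 0.47). Their summed level was 10.9 on MF, 16.4 on CF, 24.1 on MM and 16.4 on CM, and 2 of 14 were not well above background on any array. *Prg2*, the major basic protein of eosinophil granules, differed by -0.39 and 3.06, *Cma1* by -1.11 and -0.13 and *Mcpt8*, a basophil protease, by -0.25 and 1.15. Of 13 haematopoietic stem and progenitor genes, 1 was higher and 3 lower in MF (median -0.09) and 0 higher and 1 lower in MM (median 0.08), with *Hlf* (-0.75 and -0.34), *Cd34* (-1.05 and 0.08) and *Lmo2* (-0.70 and -0.01) the largest mean differences. The 8 monocyte markers had 0 past 1.5-fold in females and 2 higher in males. The erythroid list (2 higher and 3 lower of 16 in MF, 0 and 3 in MM), the megakaryocyte list (2 and 0 of 10, 1 and 0) and the B cell precursor list (4 and 2 of 13 in both sexes) had female medians of -0.32, -0.05 and -0.34. The hepatocyte list had 2 higher and 2 lower of 14 in MF and 2 and 7 in MM, and the acute phase list, which holds genes that inflammation induces in hepatocytes as it does *Lcn2*, 5 and 5 of 22 and 3 and 7. *Gstm1*, *Cebpa* and *Lcn2* are made by hepatocytes too, and the summed hepatocyte level was 8307 on MF, 8186 on CF, 5522 on MM and 8181 on CM.

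The probes differ in a feature of sequence that moved with MF minus CF. In spots well above background on all 4 arrays, the share over 2-fold higher in MF than in CF was 7.04% of 14977 spots with no window of 5 bases made of C and T with at least 3 C, and 20.3% of 646 spots with 7 or more such windows. The shares for MM vs CM were 6.48% and 5.88%. The *Elane* probe holds 10 windows, *Prtn3* 4, *Lcn2* 3, *Mpo* and *Ctsg* 2 each, *Ltf* 1, and *Ngp*, *Camp*, *S100a8* and *S100a9* 0. That of the macrophage gene *Csf1r* holds 6. A stretch of 30 bases of the probes of the 2 genes with the largest differences is shown as printed on the array, with the windows in capitals.
Elane, A_66_P137219, bases 1 to 30: gCTCCCCCCTCTaccagagaCCTCTCCatt
Ngp, A_52_P429450, bases 1 to 30: gacagggattgcagtcgagaggatacccaa
The *Ngp* stretch has no window. The median MF minus CF difference was -0.13 for spots with 0 windows and 0.04 for those with 7 or more, so these medians lay close together. The MM minus CM medians lay further apart, at 0.07 with 0 windows, -0.26 with 4 to 6 and -0.59 with 7 or more. Removing a trend over the number of windows shifts all probes with the same number alike, which leaves large single differences in place. It moved *Elane* MF minus CF only from 1.95 to 1.86. The count in MF vs CF, again 8 higher and 0 lower, therefore cannot decide if the large differences go with the windows. In males, *Elane* MM minus CM moved from -0.49 to 0.0070 and the gap between primary and secondary genes from -0.12 to 0.088. The part of the probe sequence in these differences was not tested. Spots within 5 rows and columns of each probe had median MF minus CF differences of -0.78 to 0.09, with 0.07 around *Ngp* and -0.06 around *Elane*.

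**Figure D4:**
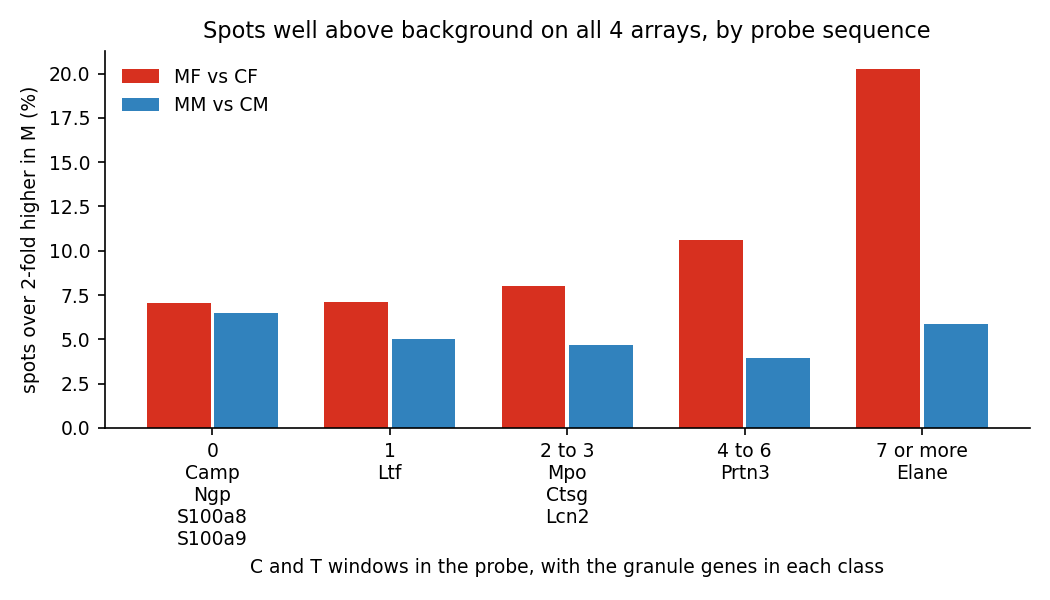
Share of spots over 2-fold higher in M than in C (y axis, %) by the number of C and T windows in the probe (x axis, with the granule genes of each class named below), for MF vs CF and MM vs CM. The bar for MF vs CF is 7.04% with 0 windows, where *Ngp* lies, and 20.3% with 7 or more, where *Elane* lies.

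The genes most like each class over the 4 arrays were found by the Euclidean distance between profiles with their own mean removed, among 19298 genes. For the mean primary granule profile these were *Ogfr*, *Renbp*, *Fkbp8*, the transcript of probe A_55_P1967591 and *Rps28*, at distances of 0.05 to 0.10. The members were farther from that mean, at 0.19 (*Prtn3*), 0.22 (*Mpo*), 1.27 (*Elane*) and 1.33 (*Ctsg*). For the secondary granule profile they were *Card10*, *Vtn*, A_55_P2038452, *Susd4* and *Tm9sf1*, at 0.06 to 0.08, and the members lay at 0.18 (*Ltf*), 0.47 (*Lcn2*), 1.02 (*Ngp*) and 1.21 (*Camp*). No other granule gene of the lists was among them.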

How the data were processed

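Liver RNA was labelled with Cy3 and hybridized to 4 one-colour Agilent mouse arrays, 1 per group. Scans were read by the authors in Agilent Feature Extraction 10.7.3.1. The deposited processed signal, a linear intensity, is background-subtracted and detrended within each array but not normalized between arrays, and the deposited value table equals it in all 62976 spots. No column of per-sample values was left unused (0).

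Here each array was scaled to its 75th percentile over 59305 non-control spots and log2 taken. An outlier flag on any array removed the spot from all 4 (1754 spots). Spots of a probe were averaged, and a gene is its probe with the highest mean. Genes had to be well above background on at least 1 array of a pair, and where the other was not, the difference is a lower bound. limma 3.58.1 (R 4.3.3) fitted all arrays with sex as a term, with Benjamini-Hochberg adjustment, and was tested on simulated data. Python 3.11.15 with pandas 2.3.3 was used otherwise. Probe positions are on mm9 and promoters on GRCm38.p6, and the builds were not mixed. The precision is limited by the number of arrays.

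All 10 genes are named. The list genes named by rule are every transcription factor and, in each other neutrophil list and here also in the lists of macrophages and of eosinophils, basophils and mast cells, the 3 with the largest mean M minus C difference among genes well above background on all 4 arrays. Of the listed genes 5 (*Ceacam1*, *Stfa3*, *Ly6g*, *Trem1*, *Ly6c2*) had no usable probe. The granule genes, lists, motifs and tests were chosen with earlier results of these data known. Alternatives were other scalings (median, quantile, normexp with offset 50 and quantile, none), the mean over probes, flagged spots kept, position and GC trends removed, other filters, a 2-fold threshold and other limma models; removing the C and T window trend was added after seeing the data.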

Additional observations from a re-analysis of the deposited data

Results flagged for a closer look

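*S100a8* and *S100a9* moved in opposite directions between M and C in the sexes. *S100a8* differed by 0.81 (log2) for MF minus CF and by -0.72 for MM minus CM, and *S100a9* by 0.99 and -0.68. Each sex has 1 array of M and 1 of C, so the difference between the sexes was not tested.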

How the results depend on the processing

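The number of granule genes past 1.5-fold in MF vs CF was 8 in the report, 4 with quantile normalization, 4 with normexp and quantile, and 5 at a 2-fold threshold. Of all genes, 41.0% were past 1.5-fold in the report, 38.9% with quantile and 30.8% with normexp and quantile. In MM vs CM the number of granule genes was 2 in the report, 0 with median centring and at a 2-fold threshold, 1 with quantile, 5 with normexp and quantile and 5 without scaling. Of all genes, 42.3% were past 1.5-fold in the report and 45.4% with median centring. With quantile it was 43.5%, with normexp and quantile 47.2% and without scaling 57.3%. The primary minus secondary gap was 0.026 in females and -0.75 in males with normexp and quantile. *S100a8* MF minus CF came to -0.0045 with quantile, and *S100a9* MM minus CM to 0.36 with normexp and quantile. limma called 9 genes without scaling and 0 to 12 when each array was left out in turn (12 without CM), and 0 granule genes each time. The fits without an array also dropped the sex term, and the group left with 1 array was assumed to vary like the other. The cause of these changes was not tested. Of 180 single values of granule genes under 9 settings, 138 kept their sign and their side of 1.5-fold, 17 no longer passed it and 13 newly passed it. The sign changed in 15, of which 13 were within 1.5-fold in the report. Of all genes past 1.5-fold, 48.4% were higher in MF than in CF and 79.6% without scaling, and 41.8% were higher in MM than in CM, 60.4% with median centring and 78.3% without scaling; the median of all genes shifted from -0.06 to 0.34 in females and to 0.50 in males without scaling, and to 0.18 in males with median centring. No paired analysis was possible because each group has 1 array and the labels give no replicate numbers.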
